A study of Drosophila melanogaster with 14 samples.

Results

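RNA of the proteasome genes of Drosophila melanogaster was followed through 4 genotypes of larvae mutant or not for the septins Sep2 and Sep5. The genes were taken by symbol, as every gene whose name begins with Prosalpha, Prosbeta, Rpn or Rpt followed by a digit, which gave 48 of the 17869 genes of the table. Constitutive subunits made up 32 of them, with 7 of the alpha ring and 7 of the beta ring of the core particle, 6 ATPases and 4 other subunits of the base of the regulatory particle, and 8 subunits of its lid. The other 16 were testis-type copies, whose symbols carry a T or an R after the subunit number.

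The proteasome is the protease complex that degrades proteins tagged with ubiquitin. Its core particle is a barrel in which the alpha rings form the gate and the beta rings hold the proteolytic sites, and the regulatory particle binds, deubiquitinates, unfolds and feeds in the substrate. Flies carry duplicate genes for several core and regulatory subunits, many of which are known for their expression in the male germline.

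Bulk polyadenylated RNA was sequenced from whole larvae of the third instar, in 14 libraries. All samples were labelled with a temperature of 25 °C. The double mutant was homozygous for both Sep2[2] and Sep5[2] (n = 4), 3 libraries were labelled Sep2[2] and 3 were labelled Sep5[2], and the control was w1118 (n = 4). Septins bind GTP and polymerise into cytoskeletal filaments beneath the cell membrane. The labels give neither the nature of the alleles, nor the genetic background of the mutants, nor the number or sex of the larvae in a sample, and the protocol text speaks of adult flies although the samples are labelled as larvae.

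Septin2, the gene mutated by Sep2[2], had 0.726, 0.270, 0.669 and 9.11 CPM (reads scaled to library size) in the double mutant, 21.7, 29.4 and 26.2 CPM in the libraries labelled Sep2[2], 78.5, 58.5 and 47.8 in the Sep5 mutant and 59.2, 48.2, 46.6 and 67.2 in the control. Double mutant replicate 4, with 160 Septin2 reads against 5 to 21 in the other double mutant libraries, stood apart from its genotype. The libraries labelled Sep2[2] held more Septin2 RNA than every library of the double mutant, which carries the same allele. Septin5 had between 0.116 and 1.34 CPM in the double mutant, 6.18 and 8.01 CPM in the libraries labelled Sep2[2], 0 and 0.0681 CPM in the Sep5 mutant and 3.58 and 7.84 CPM in the control. Library depth lay between 8858393 reads, in double mutant replicate 3, and 47203028 reads, in Sep5 mutant replicate 2. The share of reads from mt:lrRNA, the mitochondrial large ribosomal RNA, lay between 10.6% and 24.9% (double mutant), 5.74% and 7.25% (Sep2[2]-labelled libraries), 6.70% and 11.8% (Sep5 mutant) and 4.74% and 9.83% (control). Genes that mark the adult stage, such as the yolk proteins and rhodopsins, summed to 8.34 to 15.1 CPM over the 14 libraries.

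Levels of the members were ordered by their control values per transcript length. Set against the longest annotated transcript of each gene, control levels of the constitutive subunits lay between 68.9 ± 12.5 CPM per kb (SD, n = 4) for Rpt6 and 243 ± 12.1 CPM per kb (SD, n = 4) for Prosalpha2. The 12 highest levels per kb were those of alpha and beta ring subunits, after which came the ubiquitin receptors Rpn10 at 153 ± 28.5 CPM per kb and Rpn13 at 149 ± 27.6 CPM per kb (SD, n = 4 each). Prosalpha4 was the 1 tested core subunit outside these 12, at rank 19 with 134 ± 26.1 CPM per kb (SD, n = 4). Neighbours in this order differed by less than the larger of their SDs among the constitutive subunits, except that Prosalpha2 stood above Prosalpha3, Prosalpha3 above Prosbeta6, Prosbeta7 above Prosbeta3 and Rpn1 above Rpt6. The testis-type copies all lay below the constitutive subunits, between 8.91 ± 2.30 CPM per kb for Rpt4R and 27.1 ± 9.13 CPM per kb for Rpn12R (SD, n = 4 each). A copy stood at 5.56% (Prosalpha3T) to 34.9% (Rpt6R) of the level per kb of the gene it derives from.

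Prosalpha1, an alpha ring subunit gene, and Prosalpha1R had 0 reads in all 14 libraries, of 344190220 reads in total, and so did 1489 genes of the table. They lie on chromosome 2R of BDGP6 at 7827303 to 7828678 and at 7830413 to 7831771, both on the minus strand and 1734 bases apart, and their longest coding sequences are both 732 bases long. The sources do not state how reads matching more than 1 place were treated, and nothing is drawn from these zeros. The other 46 members, 31 constitutive and 15 testis-type, exceeded the filter of 0 log2 CPM in all 14 libraries and were tested.

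The double mutant was compared with the control for the effect of carrying both septin mutations. Of the 31 constitutive subunits tested, 21 were lower in the double mutant than in the control and 0 were higher, by limma at a Benjamini-Hochberg adjusted p under 0.05 over all 12586 tested genes. Over all tested genes 22.5% were called lower and 22.5% were called higher, and 45.0% in either direction. The log2 fold changes of the 31 subunits lay between -0.98 and -0.27 with a median of -0.65, whereas the median over all tested genes was -0.01. For 12 of the 31 every double mutant library lay below every control library, which was so for 19.4% of all tested genes. These p-values measure the spread between samples that no label says came from separate animals or cultures, and in RNA of whole larvae fewer cells of a type and less RNA per cell cannot be told apart.

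The 4 double mutant libraries were not alike. The median of the 31 subunits, as log2 CPM minus the mean of the control libraries, was -0.66, -0.13, -0.90 and -1.03 in the double mutant and 0.09, -0.10, -0.15 and 0.10 in the control. Replicate 2 thus reached the control range, and replicate 4, the library with Septin2 RNA, was the lowest. Within a double mutant library the differences of the 31 subunits from the control mean had an SD of 0.21 to 0.28. The subunits of a library were thus not independent of each other. Counts of them, in this and the other comparisons, are not counts of separate results. Summed over the 31 genes, the level was 3858, 5409, 3308 and 3013 CPM in the double mutant and 6580, 5535, 5328 and 6465 CPM in the control. The count of 21 lower subunits was 28 without double mutant replicate 2 and 11 without replicate 4 of that genotype. It was 11 without double mutant replicate 3, 12 without control replicate 1, and 2 with double mutant replicates 1 and 2 alone, where Rpn6 and Rpn10 were called and the median log2 fold change was -0.34. With mt:lrRNA left out of the library total and no TMM scaling, the sum lay between 2912 and 5035 CPM in the double mutant and between 6414 and 8447 CPM in the control.

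**Figure D1:**
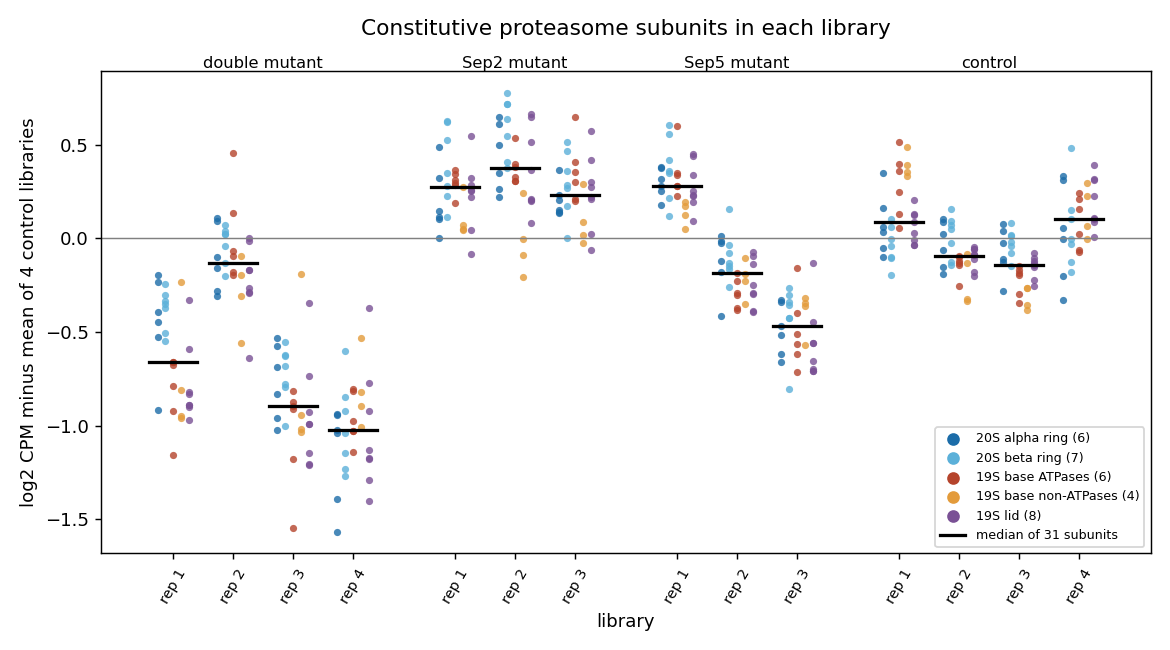
Each point is 1 of 31 constitutive proteasome subunit genes in 1 library, as log2 CPM minus the mean of the 4 control libraries (vertical axis), coloured by class, with libraries along the horizontal axis and a black bar at the median of the 31 genes. The medians of double mutant replicates 1, 3 and 4 lie between -1.03 and -0.66 and that of replicate 2 lies at -0.13, while the control medians lie between -0.15 and 0.10.

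The regulatory particle held more of the called subunits than the core, with 15 of 18 tested genes lower (median log2 fold change -0.75) against 6 of 13 for the core (median -0.56); the difference between these shares was not tested. Within the core, 4 of 6 alpha ring genes (median -0.65) and 2 of 7 beta ring genes (median -0.54) were lower. Within the regulatory particle, 5 of 6 ATPases (median -0.66), 3 of 4 other base subunits (median -0.75) and 7 of 8 lid subunits (median -0.81) were lower. Beside the 22.5% of all tested genes called lower, the shares were 28.6% for the beta ring and 66.7% to 87.5% for the other classes. Several calls lay near the threshold. With no filter on low genes Prosalpha3, Prosalpha4, Prosalpha6, Rpn11, Rpt3 and Rpt4 were not called (limma adjusted p between 0.0513 and 0.0792). With libraries centred on their medians the same held for Rpn11, Rpt1 and Rpt4 (0.0535 to 0.0704), and with the double mutant and control libraries fitted alone for Prosalpha3 and Rpt4 (0.0561 and 0.0596). After quantile normalization Rpn8, Rpn13, Prosbeta1, Prosbeta4, Prosbeta5 and Prosbeta7 were called lower as well (0.01599 to 0.0495). With the replicate number as a block Rpt4 was not called (0.0550), while Prosalpha5, Prosbeta1 and Prosbeta4 were (0.0415, 0.0219 and 0.0260).

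The lid carries the deubiquitinase of the proteasome and its scaffold. Rpn6 had 142, 170.4, 134 and 118 CPM in the double mutant, 274, 306 and 269.6 in Sep2[2]-labelled libraries, 283, 217 and 164 in the Sep5 mutant and 259, 255, 228 and 331 in the control. Its lower level in the double mutant, log2 fold change -0.93 (SE 0.19, limma adjusted p = 0.00155), rested on groups that did not overlap and was called in all 23 alternative settings. Rpn6 is the scaffold subunit of the lid that touches the core particle. Rpn12 had 61.1, 92.4, 59.4 and 49.95 CPM in the double mutant, 166, 179 and 168 in Sep2[2]-labelled libraries, 153, 106 and 76.7 in the Sep5 mutant and 116, 109, 107 and 122 in the control. The double mutant and control did not overlap for this small lid subunit, with a log2 fold change of -0.82 (SE 0.21, limma adjusted p = 0.00635, and 0.0909 with double mutant replicates 1 and 2 alone). Rpn8 had 173, 215, 171 and 168 CPM in the double mutant, 205, 230.1 and 208 in Sep2[2]-labelled libraries, 249, 198 and 199 in the Sep5 mutant and 250.4, 204, 200.1 and 218 in the control. Rpn8, the inactive partner of the lid deubiquitinase Rpn11, overlapped between both genotypes and was not called (log2 fold change -0.27, SE 0.15, limma adjusted p = 0.153). Rpn11 itself was lower by limma (log2 fold change -0.61, SE 0.23, adjusted p = 0.0411), but its groups overlapped and it was not called without any 1 of double mutant replicates 1, 3 and 4, Sep2[2]-labelled replicate 1 or any 1 control library (0.0530 to 0.130). Rpn3, Rpn5, Rpn7 and Rpn9, structural subunits of the lid, had log2 fold changes between -0.93 and -0.73 and were called in each setting other than double mutant replicates 1 and 2 alone.

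The base receives ubiquitin chains and unfolds the substrate. Rpn10 had 122, 145, 111 and 107 CPM in the double mutant, 225, 253 and 217 in Sep2[2]-labelled libraries, 242, 188 and 144 in the Sep5 mutant and 273, 202, 178 and 214 in the control. This ubiquitin receptor was lower in the double mutant with no overlap (log2 fold change -0.83, SE 0.19, limma adjusted p = 0.00287) and was called in all 23 alternative settings. Rpn2 had 199, 336, 189.8 and 218 CPM in the double mutant, 398, 332 and 408 in Sep2[2]-labelled libraries, 398, 301 and 302 in the Sep5 mutant and 538, 306, 295 and 449 in the control. Rpn2, the large scaffold of the base, overlapped, with double mutant replicate 2 above control replicates 2 and 3. It was called lower (log2 fold change -0.74, SE 0.23, limma adjusted p = 0.0179) but not without double mutant replicate 3 (0.0528) or control replicate 1 (0.0568). Rpn13 had 188, 178, 193 and 152 CPM in the double mutant, 228, 207 and 217 in Sep2[2]-labelled libraries, 240.1, 205 and 177 in the Sep5 mutant and 278, 201, 183 and 231 in the control. Rpn13, a further ubiquitin receptor and the docking site of the deubiquitinase Uch-L5, was not called (log2 fold change -0.32, SE 0.16, limma adjusted p = 0.129), and its groups overlapped. Rpn1, the other large scaffold, was lower (log2 fold change -0.75, SE 0.24, limma adjusted p = 0.0218), and its call was lost without any 1 of double mutant replicates 1, 3 and 4 or control replicates 1 and 4 (0.0526 to 0.0665).

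The Rpt genes encode the ATPases that form the unfolding ring. Rpt5 had 93.5, 155, 78.2 and 86.8 CPM in the double mutant, 216, 233 and 205 in Sep2[2]-labelled libraries, 207, 151 and 119.6 in the Sep5 mutant and 184, 166, 157 and 205 in the control. Rpt5 was lower with no overlap (log2 fold change -0.83, SE 0.22, limma adjusted p = 0.00692, and 0.109 with double mutant replicates 1 and 2 alone). Rpt2 had 80.9, 159.5, 61.7 and 88.5 CPM in the double mutant, 206, 227 and 208 in Sep2[2]-labelled libraries, 229.9, 139 and 110.2 in the Sep5 mutant and 215, 164, 142 and 214 in the control. Rpt2 had the most negative log2 fold change of the 31 subunits, -0.98 (SE 0.28, limma adjusted p = 0.0109, and 0.129 with double mutant replicates 1 and 2 alone), and double mutant replicate 2 lay within the control range. Rpt6 had 60.5, 131, 54.4 and 54.6 CPM in the double mutant, 123, 139 and 150.1 in Sep2[2]-labelled libraries, 145, 73.8 and 85.7 in the Sep5 mutant and 123, 89.1, 84.2 and 90.9 in the control. Rpt6 was not called (log2 fold change -0.46, SE 0.28, limma adjusted p = 0.194): replicates 1, 3 and 4 of the double mutant lay below every control library, and replicate 2 lay above them all. Without that replicate the adjusted p of Rpt6 was 0.0145. Rpt1, Rpt3 and Rpt4 had log2 fold changes of -0.62, -0.70 and -0.63 and limma adjusted p-values of 0.0297, 0.0304 and 0.0464, and each lost its call when double mutant replicate 1, 3 or 4 or control replicate 1 was left out (0.0524 to 0.127). Rpt4 also lost it without any 1 of the Sep2[2]-labelled libraries, Sep5 mutant replicate 2 or control replicates 2, 3 and 4 (0.0531 to 0.0995), and Rpt1 without control replicate 4 (0.0551).

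The alpha ring gates the core. Prosalpha7 had 121, 141, 97.7 and 90.4 CPM in the double mutant, 188, 246 and 192 in Sep2[2]-labelled libraries, 197, 159.9 and 122 in the Sep5 mutant and 178, 167, 171 and 181 in the control. Prosalpha7 was lower with no overlap (log2 fold change -0.65, SE 0.18, limma adjusted p = 0.0101, and 0.148 with double mutant replicates 1 and 2 alone). Prosalpha4 had 82.4, 145, 76.3 and 81 CPM in the double mutant, 155, 181 and 183 in Sep2[2]-labelled libraries, 203, 116 and 98.2 in the Sep5 mutant and 174, 136, 128 and 193 in the control. Prosalpha4 was called lower (log2 fold change -0.74, SE 0.25, limma adjusted p = 0.0252) although double mutant replicate 2 lay within the control range. Its call was lost without any 1 of double mutant replicates 1, 3 and 4 or control replicates 1 and 4 (0.0608 to 0.0707). Prosalpha5 had 133, 166, 105 and 59.4 CPM in the double mutant, 173, 238 and 173 in Sep2[2]-labelled libraries, 202, 157 and 123 in the Sep5 mutant and 199, 166, 144 and 124 in the control. For Prosalpha5 the genotypes overlapped and no call was made (log2 fold change -0.53, SE 0.28, limma adjusted p = 0.138), although the adjusted p was 0.0478 without double mutant replicate 2. Prosalpha3 and Prosalpha6 had log2 fold changes of -0.69 and -0.65 and limma adjusted p-values of 0.0351 and 0.0312. Prosalpha6 lost its call without double mutant replicate 3 or 4 or control replicate 1 or 4 (0.0502 to 0.0935), and Prosalpha3 without double mutant replicate 4 or control replicate 1, 2 or 3 (0.0655 to 0.0927).

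The beta ring holds the proteolytic subunits Prosbeta1, Prosbeta2 and Prosbeta5, none of which passed the test. Prosbeta6 had 128, 177, 106 and 82.2 CPM in the double mutant, 232, 237 and 205 in Sep2[2]-labelled libraries, 211, 166 and 142 in the Sep5 mutant and 169, 194, 184 and 182 in the control. Prosbeta6, a structural subunit, was lower (log2 fold change -0.62, SE 0.21, limma adjusted p = 0.0258), with double mutant replicate 2 inside the control range. Its call was lost without any 1 of double mutant replicates 3 and 4 or control replicates 2 and 3 (0.05003 to 0.0838). Prosbeta3 had 117, 126, 93.5 and 70.3 CPM in the double mutant, 223, 237 and 199 in Sep2[2]-labelled libraries, 186, 161 and 117 in the Sep5 mutant and 135, 149.6, 153 and 141 in the control. Prosbeta3, also structural, was lower with no overlap (log2 fold change -0.54, SE 0.19, limma adjusted p = 0.0332), and lost its call without double mutant replicate 3 or 4 or control replicate 2, 3 or 4 (0.0529 to 0.107). Prosbeta2 had 127, 168, 109 and 105 CPM in the double mutant, 247, 263 and 228 in Sep2[2]-labelled libraries, 235, 145 and 126 in the Sep5 mutant and 139.6, 145, 144 and 224 in the control. Prosbeta2, the trypsin-like subunit, overlapped between the genotypes and had a log2 fold change of -0.36 (SE 0.22, limma adjusted p = 0.210), with control replicate 4 well above the other control libraries. Prosbeta1, the caspase-like subunit, and Prosbeta5, the chymotrypsin-like subunit, had log2 fold changes of -0.56 and -0.54 (SE 0.23 and 0.22) and limma adjusted p-values of 0.0606 and 0.0588. Without double mutant replicate 2 those of Prosbeta1 and Prosbeta5 were 0.0146 and 0.0135.

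Genes of the larval salivary glue and of the early ecdysone response were measured in the same libraries. Of 6 glue genes 5 were lower in the double mutant than in the control (median log2 fold change -2.06), and their sum was 2655, 6179, 1235 and 725 CPM in the double mutant against 6469, 5687, 4425 and 17617 CPM in the control. Of 11 ecdysone response genes 9 were lower (median log2 fold change -2.54), and 22.5% of all tested genes were called lower. The median of the ecdysone genes minus the control mean was -2.66, -2.41, -2.47 and -2.62 in the double mutant and 0.27, -0.36, -0.40 and 0.40 in the control. The ecdysone median of double mutant replicate 2, -2.41, lay near those of the other 3 double mutant libraries. The double mutant library with the highest proteasome level, replicate 2, was also that with the highest glue level. In the Sep5 mutant the glue genes summed to 14014, 3732 and 5942 CPM, beside 7172, 5167 and 4282 CPM for the 31 subunits. Replicate 1 was the highest for both there, while the lowest was replicate 2 for glue and replicate 3 for the subunits. In the control the 31 subunits summed to 6580, 5535, 5328 and 6465 CPM. There replicate 4 was the highest for glue and replicate 1 for the subunits, while replicate 3 was the lowest for both. The part of the glue genes, the ecdysone genes and the ribosomal RNA share in the proteasome levels was not tested.

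**Figure D2:**
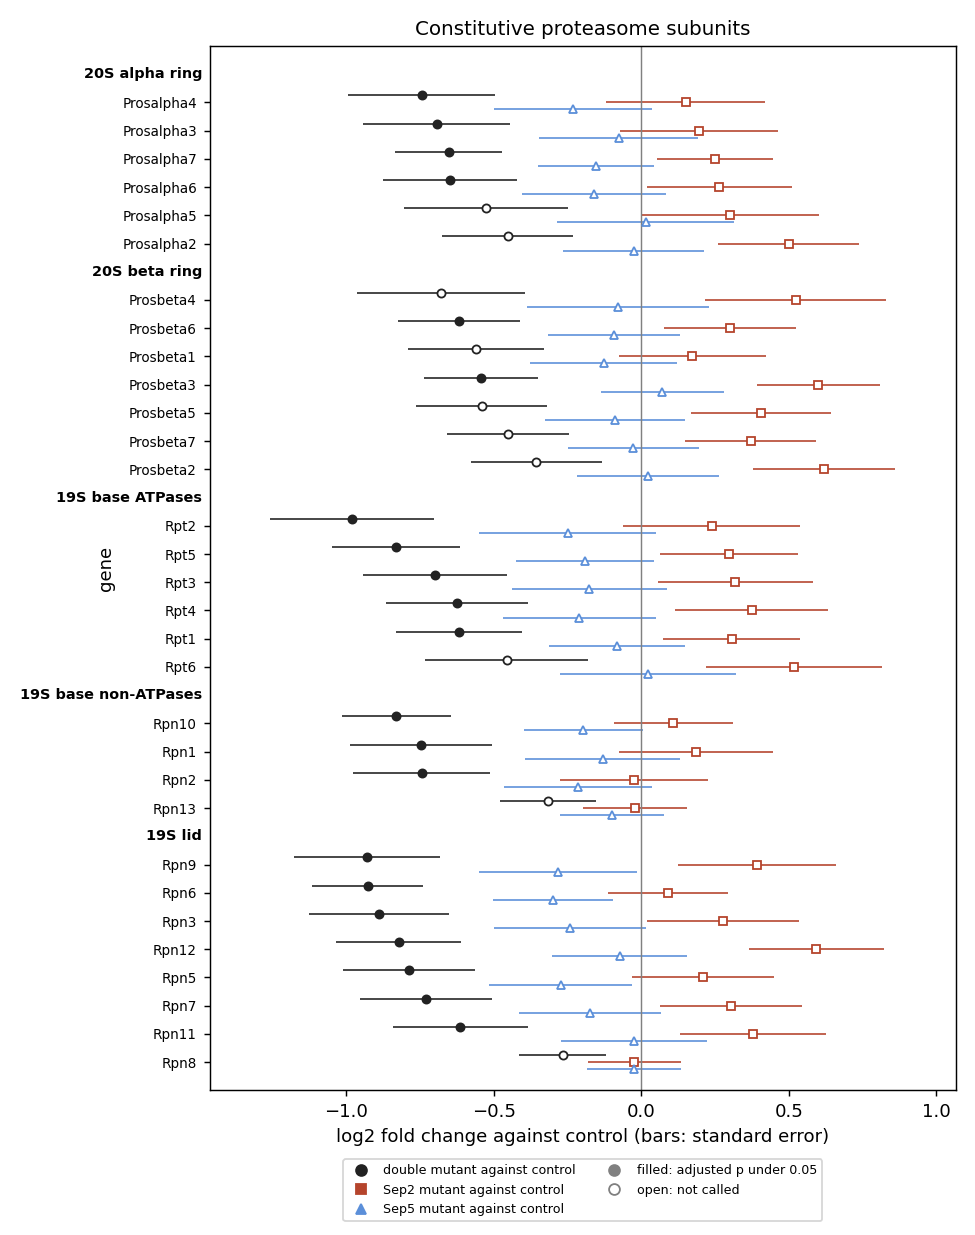
Log2 fold changes against the control (horizontal axis) with standard errors for 31 constitutive subunits (vertical axis, by class), for the double mutant (circles), the libraries labelled Sep2 (squares) and the Sep5 mutant (triangles); filled symbols passed an adjusted p of 0.05. All 31 double mutant values lie below 0 and 21 are filled, while 28 of 31 Sep2 values lie above 0 and 27 of 31 Sep5 values below 0, with no filled symbol in either.

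None of the 31 constitutive subunits passed the test in the libraries labelled Sep2[2] against the control, where 1.24% of all tested genes were called lower and 3.26% higher. Their log2 fold changes lay between -0.02 and 0.62 with a median of 0.30, and 28 of 31 were positive. At an unadjusted p under 0.05, 0 were lower and 3 higher (against 1045 lower and 1669 higher of 12586 tested genes). Those 3 were Prosbeta3 (log2 fold change 0.60, SE 0.21, limma adjusted p = 0.119), Rpn12 (0.59, SE 0.23, adjusted p = 0.155) and Prosbeta2 (0.62, SE 0.24, adjusted p = 0.159). Every library labelled Sep2[2] lay above every control library for 14 of the 31, against 13.4% of all tested genes. The median of the 31 subunits minus the control mean was 0.27, 0.38 and 0.23 in these libraries, and the glue genes summed to 17944, 21157 and 19550 CPM in them, against 4425 to 17617 CPM in the control. No glue gene was called, and the part of the glue level in the proteasome values was not tested. Septin2 RNA was present in all 3 libraries, as given above.

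In the Sep5 mutant 0 of the 31 subunits were called against the control, where 1.24% of all tested genes were lower and 3.89% higher. Also 0 of them had an unadjusted p under 0.05 (against 1016 lower and 1610 higher of 12586 tested genes). The log2 fold changes lay between -0.30 (Rpn6) and 0.07 (Prosbeta3) with a median of -0.13. No subunit separated the Sep5 mutant from the control without overlap, in either direction, against 5.32% of tested genes wholly lower and 9.84% wholly higher. The 3 libraries differed, with medians of 0.28, -0.19 and -0.47 relative to the control mean. The median log2 fold change was -0.33 without replicate 1 and 0.03 without replicate 3 of the Sep5 mutant, and -0.07 without control replicate 1. Summed over the 31 genes, they had 7172, 5167 and 4282 CPM, so that replicate 1 lay above and replicates 2 and 3 below the control range of 5328 to 6580 CPM.

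Against the libraries labelled Sep2[2] the median log2 fold change of the double mutant was -0.95, beside -0.65 against the control. Of the 31 subunits 28 were lower in the double mutant by limma and 0 were higher, against 12.9% of all tested genes called lower. The log2 fold changes had a range of -1.42 (Rpn12) to -0.24 (Rpn8). For 27 of the 31 the genotypes did not overlap, against 17.1% of all tested genes. Prosalpha5 (-0.83, adjusted p = 0.0518), Rpn13 (-0.29, adjusted p = 0.212) and Rpn8 (-0.24, adjusted p = 0.249) were the 3 not called. With double mutant replicates 1 and 2 alone 4 subunits were called, which were Rpn12, Prosbeta3, Rpn6 and Rpn9 (limma adjusted p = 0.0152, 0.0216, 0.0398 and 0.0452). The count was 24 without double mutant replicate 4. With the replicate number as a block Rpn2 and Rpt6 were not called (0.0568 and 0.0571), while Prosalpha5 was (0.0472). This comparison and that with the control share the 4 double mutant libraries.

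Between the double and the Sep5 mutant 0 of the 31 subunits were called, against 3.75% of all tested genes lower and 5.16% higher. All 31 log2 fold changes were negative, with a median of -0.53. Of them 15 had an unadjusted p under 0.05, all lower in the double mutant (against 1649 lower and 1715 higher of 12586 tested genes). These 15 are not separate results, since the subunits of a library varied together. The median was -0.33 without Sep5 mutant replicate 1 and -0.26 with double mutant replicates 1 and 2 alone. Rpn12 had the smallest limma adjusted p (log2 fold change -0.75, SE 0.23, adjusted p = 0.0556). No subunit was without overlap, against 8.76% of tested genes. The number called was 7 without double mutant replicate 2 and 4 without Sep5 mutant replicate 3. Between the libraries labelled Sep2[2] and the Sep5 mutant 0 of 31 were called, against 1.30% of tested genes lower and 1.13% higher. At an unadjusted p under 0.05 there were 4 of 31, against 999 lower and 815 higher of 12586 tested genes. The median of the 31 subunits was 0.43, and 0.67 without replicate 1 and 0.26 without replicate 3 of the Sep5 mutant.

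Whether the double mutant departed from the sum of the 2 single mutants was tested as an interaction, that is, double mutant less Sep2 less Sep5, plus control, on the log2 scale. Prosbeta3 (-1.22, SE 0.29, limma adjusted p = 0.0341) and Rpn12 (-1.34, SE 0.32, limma adjusted p = 0.0335) were called, against 2.26% of all tested genes with this sign, and 0 were called with the opposite sign, against 2.21%. All 31 interaction values were negative, with a median of -0.84. Of them 23 had an unadjusted p under 0.05, against 1361 negative and 1238 positive values of 12586 tested genes. Here too the 31 values are not separate results. Both calls were lost with the replicate number as a block (0.0677 for Prosbeta3 and 0.0684 for Rpn12), and that of Rpn12 without the filter (0.0548) or with libraries centred on their medians (0.0529). Both were also lost without any 1 of double mutant replicate 3, Sep2[2]-labelled replicates 1 and 2, Sep5 mutant replicates 1 and 2 and control replicates 1, 2 and 3 (0.0515 to 0.0928), and Rpn12 without double mutant replicate 1 or 4 or Sep2[2]-labelled replicate 3 (0.0550 to 0.0559). The count was 8 without double mutant replicate 2. The interaction takes in the libraries labelled Sep2[2], which retained Septin2 RNA.

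Testis-type copies were lower in the double mutant than in the control as well, with 10 of 15 tested genes called lower and 0 higher, against 22.5% of all tested genes in each direction. Their log2 fold changes lay between -1.71 (Prosalpha3T) and -0.04 (Rpt4R) with a median of -0.94, and 7 of the 15 did not overlap, against 19.4% of tested genes. The order of the libraries differed from that of the constitutive subunits. The median of the 15 copies minus the control mean was -0.34, -1.61, -0.33 and -1.28 in the double mutant and -0.21, 0.51, 0.14 and -0.38 in the control. Replicate 2 of the double mutant, the highest for the constitutive subunits, was the lowest for the copies. The number called was 2 without double mutant replicate 2, replicate 4 or control replicate 2, 5 without control replicate 1, 3 without control replicate 3, and 1 with double mutant replicates 1 and 2 alone. It was also 2 when no filter on low genes was applied, where Prosalpha3T and Prosalpha6T were called and the other 8 lay between 0.0532 and 0.0942. With the replicate number as a block it was 6, without Prosbeta2R1, Prosbeta2R2, Prosbeta4R2 and Rpn13R (0.0510 to 0.0673).

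Copies of alpha ring subunits included the largest change of the 15. Prosalpha3T had 5.15, 2.199, 4.28 and 1.82 CPM in the double mutant, 6.71, 11.3 and 4.82 in Sep2[2]-labelled libraries, 7.36, 12.3 and 7.91 in the Sep5 mutant and 8.36, 15.8, 11.9 and 6.93 in the control. Prosalpha3T did not overlap between double mutant and control (log2 fold change -1.71, SE 0.37, limma adjusted p = 0.00234) and was the 1 testis-type gene called in all 23 alternative settings. Prosalpha6T had 18.8, 7.06, 15 and 8.83 CPM in the double mutant, 16.1, 24.3 and 12.6 in Sep2[2]-labelled libraries, 12.1, 26.8 and 16.9 in the Sep5 mutant and 22.4, 36.1, 26.1 and 19.8 in the control. Prosalpha6T was lower with no overlap (log2 fold change -1.14, SE 0.33, limma adjusted p = 0.0133, and 0.0569 with double mutant replicates 1 and 2 alone). Prosalpha4T1 had 12.5, 4.59, 9.91 and 5.297 CPM in the double mutant, 17.1, 23.4 and 9.88 in Sep2[2]-labelled libraries, 10.8, 21.8 and 10.8 in the Sep5 mutant and 13.6, 20.2, 18.4 and 12.8 in the control. For Prosalpha4T1 the groups did not overlap (log2 fold change -1.10, SE 0.36, limma adjusted p = 0.0219). It was not called when double mutant replicate 2 or 4 or control replicate 2 or 3 was omitted (0.0518 to 0.0716). Prosalpha4T2 had 21.2, 7.95, 16.9 and 12.2 CPM in the double mutant, 18.9, 24.9 and 14.5 in Sep2[2]-labelled libraries, 12.3, 29.4 and 19.9 in the Sep5 mutant and 27.7, 33.04, 24.8 and 16.1 in the control. Prosalpha4T2, with overlap, had a log2 fold change of -0.84 (SE 0.33) and a limma adjusted p of 0.0519, which was 0.0236 without double mutant replicate 1 and 0.0258 without control replicate 4.

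Copies of the beta ring included duplicates of the proteolytic subunits. Prosbeta5R1 had 19.6, 6.98, 20.6 and 7.86 CPM in the double mutant, 16.9, 24.7 and 14.4 in Sep2[2]-labelled libraries, 17.1, 31.2 and 21.1 in the Sep5 mutant and 26.7, 42.3, 33.1 and 15.2 in the control. Prosbeta5R1, which overlapped through control replicate 4, was called lower (log2 fold change -1.17, SE 0.39, limma adjusted p = 0.0248). Prosbeta5R2 had 16.4, 7.41, 15.4 and 7.23 CPM in the double mutant, 10.9, 15.5 and 6.27 in Sep2[2]-labelled libraries, 20.6, 48.3 and 22.2 in the Sep5 mutant and 20.2, 31.2, 22.6 and 17.01 in the control. Prosbeta5R2 did not overlap between double mutant and control (log2 fold change -1.04, SE 0.36, limma adjusted p = 0.0323), and its libraries labelled Sep2[2] lay below the control too (log2 fold change -1.11, SE 0.39, adjusted p = 0.125). Prosbeta5R1 was not called without double mutant replicate 2 or 4 or control replicate 2 or 3 (0.0593 to 0.0823), nor Prosbeta5R2 without double mutant replicate 2 or 4 or control replicate 1, 2 or 3 (0.0513 to 0.0950). Prosbeta2R1 had 10.4, 3.97, 10.4 and 6.15 CPM in the double mutant, 8.94, 10.6 and 7.02 in Sep2[2]-labelled libraries, 5.52, 11.7 and 8.73 in the Sep5 mutant and 13.6, 13.9, 14.6 and 10.7 in the control. Prosbeta2R2 had 15.7, 7.02, 16.2 and 8.202 CPM in the double mutant, 16.3, 18.9 and 13.4 in Sep2[2]-labelled libraries, 11.4, 25.8 and 14.7 in the Sep5 mutant and 21.7, 21.8, 16.2 and 16.3 in the control. Both copies of Prosbeta2 were called with no overlap, narrowly so for Prosbeta2R2, at 16.20 CPM in double mutant replicate 3 and 16.24 CPM in control replicate 3, at log2 fold changes of -0.86 (SE 0.31, limma adjusted p = 0.0335) and -0.77 (SE 0.30, adjusted p = 0.0495). Prosbeta2R1 lost its call without double mutant replicate 2 or 4 or control replicate 1, 2 or 3 (0.0665 to 0.108), and Prosbeta2R2 without any 1 library other than double mutant replicates 1 and 3 and Sep5 mutant replicates 1 and 2 (0.0548 to 0.153). Prosbeta2R2 was also not called with 1 CPM added, after quantile normalization or with the double mutant and control libraries fitted alone (0.0504 to 0.0536), nor was Rpn13R with these libraries alone (0.0537).

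Prosbeta4R1 and Prosbeta4R2 lie 1467 bases apart on chromosome 2L. Prosbeta4R2 had 10.3, 3.82, 13.1 and 5.24 CPM in the double mutant, 8.64, 12.1 and 4.400 in Sep2[2]-labelled libraries, 11.5, 18.1 and 11.1 in the Sep5 mutant and 13.2, 24.5, 17.6 and 10.01 in the control. Prosbeta4R2 was called lower with overlap (log2 fold change -1.09, SE 0.41, limma adjusted p = 0.0421) and lost its call without any 1 of double mutant replicates 2 and 4, Sep2[2]-labelled replicate 1 or control replicates 1, 2 and 3 (0.0528 to 0.133). Prosbeta4R1 had 10.4, 4.59, 9.24 and 2.905 CPM in the double mutant, 11.1, 17.9 and 7.16 in Sep2[2]-labelled libraries, 7.08, 17.1 and 7.99 in the Sep5 mutant and 10.6, 19.1, 11.99 and 7.37 in the control. Prosbeta4R1 was not called (log2 fold change -0.94, SE 0.44, limma adjusted p = 0.0923), with an adjusted p of 0.0443 without double mutant replicate 1.

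Among copies of regulatory subunits both non-ATPases were called lower in the double mutant than in the control, and the 3 ATPases were not called. The difference between non-ATPase and ATPase copies was not tested. Rpn12R had 18.3, 7.95, 15 and 10.2 CPM in the double mutant, 21.9, 33.4 and 15.02 in Sep2[2]-labelled libraries, 14.6, 29.3 and 20.2 in the Sep5 mutant and 20.1, 37.7, 25.1 and 18.9 in the control. Rpn12R did not overlap (log2 fold change -1.0, SE 0.32, limma adjusted p = 0.0219) and lost its call without double mutant replicate 2 or 4 or control replicate 2 (0.0565 to 0.0734). Rpn13R had 8.502, 3.94, 8.84 and 4.39 CPM in the double mutant, 8.82, 11.1 and 5.71 in Sep2[2]-labelled libraries, 7.15, 13.3 and 9.78 in the Sep5 mutant and 9.32, 15.4, 11.6 and 8.101 in the control. Rpn13R was called with overlap (log2 fold change -0.83, SE 0.32, limma adjusted p = 0.0462) and lost its call without double mutant replicate 2 or 4, Sep2[2]-labelled replicate 1, Sep5 mutant replicate 3 or control replicate 1, 2 or 3 (0.0566 to 0.137). Rpt3R had 18.6, 10.5, 16.3 and 10.6 CPM in the double mutant, 21.2, 31.3 and 14.8 in Sep2[2]-labelled libraries, 10.2, 20.96 and 18.7 in the Sep5 mutant and 15.9, 27.1, 21.6 and 15.9 in the control. Rpt4R had 16.4, 8.06, 14.5 and 13.8 CPM in the double mutant, 13.96, 21.2 and 13.2 in Sep2[2]-labelled libraries, 7.08, 17.9 and 15.8 in the Sep5 mutant and 9.99, 17.8, 14.4 and 11.4 in the control. Rpt6R had 37.7, 17.5, 35.2 and 17.9 CPM in the double mutant, 29.4, 54.6 and 23.9 in Sep2[2]-labelled libraries, 20.7, 45.2 and 27.9 in the Sep5 mutant and 25.8, 50.9, 37.5 and 24.9 in the control. All 3 ATPase copies overlapped between double mutant and control, at log2 fold changes of -0.53 for Rpt3R (SE 0.30, limma adjusted p = 0.161), -0.04 for Rpt4R (SE 0.31, adjusted p = 0.936) and -0.39 for Rpt6R (SE 0.35, adjusted p = 0.391). Of the 15 copies 12 had a more negative log2 fold change than the gene they derive from, and the other 3 were these ATPases; the differences between copy and parent were not tested.

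**Figure D3:**
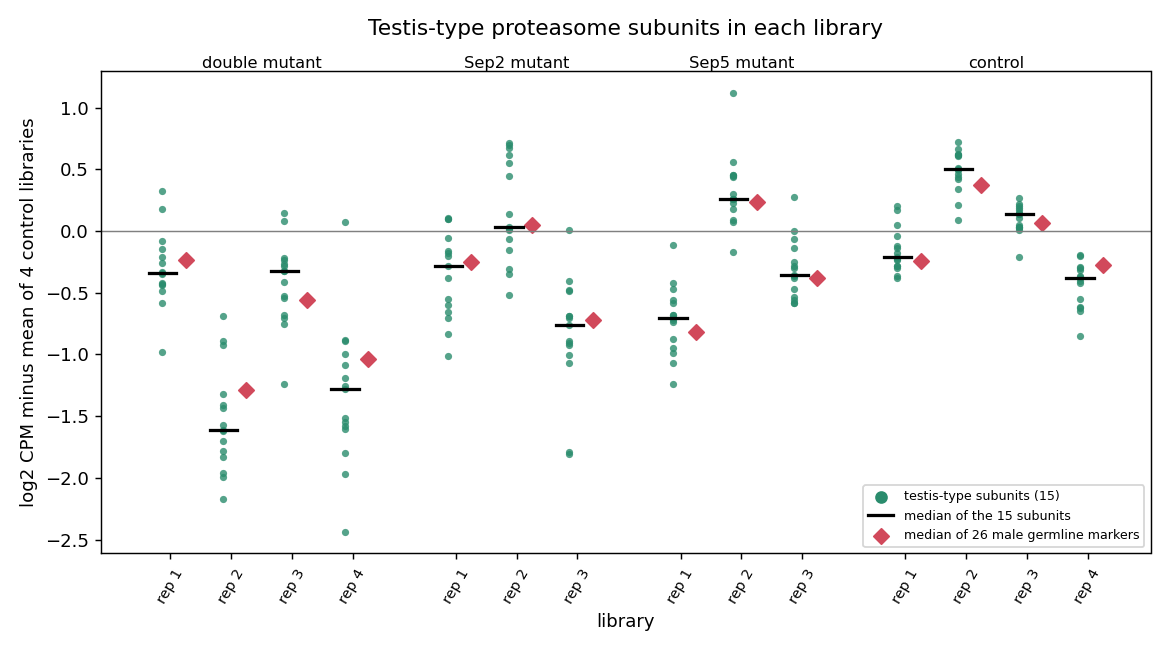
Each green point is 1 of 15 testis-type subunit genes in 1 library, as log2 CPM minus the mean of the 4 control libraries (vertical axis), with a black bar at their median and a red diamond at the median of 26 male germline markers. In the double mutant the medians of the copies lie at -1.61 and -1.28 in replicates 2 and 4 and at -0.34 and -0.33 in replicates 1 and 3, with the markers at -1.29, -1.04, -0.23 and -0.56 in the same order.

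Other genes of the male germline were also lower in the double mutant. Of 26 tested markers 12 were lower in the double mutant than in the control and 0 were higher (median log2 fold change -0.76), against 22.5% of all tested genes in each direction, among them the testis tubulin betaTub85D at -1.52 (limma adjusted p = 0.000996). The sum of all matched markers lay between 646 and 1320 CPM in the double mutant, 1029 and 1910 CPM in the libraries labelled Sep2[2], 1049 and 2196 CPM in the Sep5 mutant and 1493 and 2725 CPM in the control. None of these markers was at 0 in all libraries of a genotype. A list of germline genes not particular to males went the other way: of 7, 3 were higher, namely piwi (log2 fold change 1.25, limma adjusted p = 0.00265), vas (1.14, adjusted p = 0.00591) and aub (0.70, adjusted p = 0.0239), and AGO3 was lower (-1.07, adjusted p = 0.00507). The median of these 7 minus the control mean was 0.88, 0.36, 1.19 and 0.53 in the double mutant and -0.29, 0.30, 0.01 and 0.04 in the control. The part of the amount of male germline in the lower copies was not tested. The RNA lncRNA:roX1, of the male dosage compensation complex, lay between 768 and 1155 CPM in the double mutant, 574 and 762 in the libraries labelled Sep2[2], 622 and 746 in the Sep5 mutant and 629 and 1371 in the control. It was not called in the double mutant (limma adjusted p = 0.961). The other RNA of this complex, lncRNA:roX2, had 40.9, 17.1, 37.4 and 30.4 CPM in the double mutant and 18.1 to 35.3 CPM in the control. For msl-2, a further gene of dosage compensation, the ranges were 15.2 to 24.5 CPM and 20.2 to 32.4 CPM. None of these 3 genes was called between double mutant and control (limma adjusted p between 0.152 and 0.961). The share of males in the samples was not tested.

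Neither single mutant had a called testis-type copy against the control. Of all tested genes 1.24% were called lower and 3.26% higher in the libraries labelled Sep2[2], and 1.24% and 3.89% in the Sep5 mutant. At an unadjusted p under 0.05 there were 2 of 15 copies, both lower, in the libraries labelled Sep2[2] and 0 of 15 in the Sep5 mutant. All 12586 tested genes gave 1045 lower and 1669 higher in the former and 1016 and 1610 in the latter. The median log2 fold changes of the copies were -0.37 in the libraries labelled Sep2[2] and -0.22 in the Sep5 mutant. The first median was -0.57 without replicate 2 and -0.13 without replicate 3 of the Sep2[2]-labelled libraries, and -0.21 without control replicate 2. The second lay between -0.51 without Sep5 mutant replicate 2 and -0.01 without Sep5 mutant replicate 1, and also moved without Sep5 mutant replicate 3 (-0.14), control replicate 2 (-0.05) or control replicate 4 (-0.38). Against the libraries labelled Sep2[2] the double mutant was lower for Prosalpha3T (log2 fold change -1.20, SE 0.40, limma adjusted p = 0.0375) and Prosalpha4T1 (-1.08, SE 0.38, adjusted p = 0.0470), that is 13.3% of the 15 copies, close to the 12.9% of all tested genes called lower. Against the Sep5 mutant it was lower for Prosalpha3T (-1.52, SE 0.40, limma adjusted p = 0.0310) and Prosbeta5R2 (-1.37, SE 0.39, adjusted p = 0.0444), again 2 of 15, where 3.75% of all tested genes were called lower. Each of these 4 calls was lost without double mutant replicate 2 (0.0740 to 0.120) or replicate 4 (0.0772 to 0.116). Without Sep2[2]-labelled replicate 1 or 2 the first 2 were lost (0.0851 to 0.212), and without Sep5 mutant replicate 2 or 3 the other 2 were (0.0503 to 0.236). Prosalpha4T1 was also not called without any 1 control library or Sep5 mutant replicate 1 or 3 (0.0502 to 0.0566), nor was Prosbeta5R2 without Sep2[2]-labelled replicate 1 or control replicate 1 or 3 (0.0566 to 0.0614). None of the 4 was called with no filter on low genes (0.0740 to 0.102), with the replicate number as a block (0.0542 to 0.102) or with the compared genotypes fitted alone (0.0625 to 0.0948). In the interaction 0 of 15 copies were called, against 2.26% of all tested genes with a negative and 2.21% with a positive value. At an unadjusted p under 0.05 there were also 0, against 1361 negative and 1238 positive of 12586 tested genes.

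Genes that work with the proteasome were taken as a list of 20. In the double mutant 7 (35%) were lower and 2 (10%) higher than in the control, with a median log2 fold change of -0.42, whereas 22.5% of all tested genes were called in each direction. Pomp had 77.6, 82.95, 57.2 and 42.7 CPM in the double mutant, 146, 157 and 129 in Sep2[2]-labelled libraries, 112, 121 and 64.7 in the Sep5 mutant and 108, 114.7, 103 and 139.5 in the control. Pomp, the chaperone that builds the core particle, did not overlap (log2 fold change -0.87, SE 0.23, limma adjusted p = 0.00771, and 0.119 with double mutant replicates 1 and 2 alone). Usp14 had 107, 131, 93.3 and 72.97 CPM in the double mutant, 163, 169 and 170.0 in Sep2[2]-labelled libraries, 167, 123 and 119.6 in the Sep5 mutant and 144, 150.3, 142 and 157 in the control. Usp14, a deubiquitinase that docks on the regulatory particle, was lower with no overlap (log2 fold change -0.59, SE 0.17, limma adjusted p = 0.0144, and 0.190 with those 2 replicates alone). Ubqn had 95.6, 133, 99.2 and 129.8 CPM in the double mutant, 133, 114 and 152 in Sep2[2]-labelled libraries, 152, 122 and 122 in the Sep5 mutant and 187, 155, 143 and 227 in the control. Ubqn, a shuttle that delivers ubiquitinated proteins, did not overlap either (log2 fold change -0.63, SE 0.18, limma adjusted p = 0.0121, and 0.0537 with those 2 replicates alone). RpS27A had 1581, 1032, 1240 and 986 CPM in the double mutant, 693, 934 and 597 in Sep2[2]-labelled libraries, 1105, 938 and 862 in the Sep5 mutant and 527, 808, 823 and 682 in the control. RpS27A, which encodes ubiquitin fused to a ribosomal protein, was higher in every double mutant library than in every control library (log2 fold change 0.76, SE 0.22, limma adjusted p = 0.0111). After quantile normalization its adjusted p was 0.260, and with double mutant replicates 1 and 2 alone it was the 1 gene of these 4 that was called.

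The other called partners were TER94, the ATPase that extracts ubiquitinated proteins (log2 fold change -0.62, limma adjusted p = 0.0158), the deubiquitinase Uch-L5 (-0.53, adjusted p = 0.0209), the F-box protein ntc (-0.90, adjusted p = 0.0239) and cnc (-0.68, adjusted p = 0.0258), whose product is a transcription factor known to activate proteasome genes. Keap1, the negative regulator of cnc, was higher (log2 fold change 0.37, limma adjusted p = 0.0377). Leaving out 1 library ended the calls of Uch-L5 (0.0666 and 0.0696, without double mutant replicate 4 and without control replicate 2), of ntc (0.0517 to 0.0762, double mutant replicates 2 and 4 and control replicates 2 and 3) and of cnc (0.0575 to 0.0801, double mutant replicates 1 and 3 and control replicates 1 and 4). For Keap1 it was so for each of double mutant replicates 1, 3 and 4, Sep2[2]-labelled replicate 1 and the 4 control libraries (0.0503 to 0.0962). The call of cnc was also lost with median centring (0.0545), that of ntc without a filter (0.0556) and that of Keap1 with the double mutant and control libraries fitted alone (0.0595) or with the replicate number as a block (0.0537). In both single mutants 0 of the 20 partners were called against the control. Of all tested genes 1.24% were called lower and 3.26% higher in the libraries labelled Sep2[2], and 1.24% and 3.89% in the Sep5 mutant. At an unadjusted p under 0.05 also 0 partners were lower or higher in both. All 12586 tested genes gave 1045 lower and 1669 higher in the libraries labelled Sep2[2], and 1016 and 1610 in the Sep5 mutant.

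The COP9 signalosome removes the ubiquitin-like Nedd8 from cullins, and its subunits are related to those of the lid. Of its 9 genes 1 was lower and 1 higher in the double mutant than in the control (11.1% each, against 22.5% of all tested genes), with a median log2 fold change of -0.08 beside -0.81 for the lid; the difference between both lists was not tested. CSN1a had 7.47, 3.16, 7.096 and 2.85 CPM in the double mutant, 9.12, 17.4 and 6.18 in Sep2[2]-labelled libraries, 6.81, 16.6 and 7.69 in the Sep5 mutant and 13.1, 21.97, 16.8 and 10.7 in the control. CSN1a was lower with no overlap (log2 fold change -1.67, SE 0.41, limma adjusted p = 0.00471) and was called in all 23 alternative settings. Double mutant replicates 2 and 4 were the lowest for CSN1a, as for the median of the testis-type copies (-1.61 and -1.28 relative to the control mean). A link between CSN1a and these copies was not tested. CSN6 had 30, 27.7, 30.9 and 28.8 CPM in the double mutant, 32.6, 32.4 and 33.2 in Sep2[2]-labelled libraries, 28.7, 28.6 and 29.4 in the Sep5 mutant and 20.8, 23.4, 24.1 and 22.4 in the control. CSN6 was higher with no overlap (log2 fold change 0.37, SE 0.12, limma adjusted p = 0.0178, 0.0978 with double mutant replicates 1 and 2 alone, and 0.0595 with the double mutant and control libraries fitted alone). CSN7 had 38.9, 37.4, 36.4 and 32.6 CPM in the double mutant, 53.5, 51.6 and 51.4 in Sep2[2]-labelled libraries, 48.01, 49.4 and 42.1 in the Sep5 mutant and 39.5, 45.2, 44.4 and 54.9 in the control. CSN7 separated the genotypes but was not called (log2 fold change -0.33, SE 0.13, limma adjusted p = 0.0535, 0.0283 without control replicate 1, 0.0216 without a filter and 0.0447 after quantile normalization). CSN4 had 52.1, 64.2, 51.7 and 44.3 CPM in the double mutant, 45.7, 50.1 and 54.01 in Sep2[2]-labelled libraries, 52.2, 42.8 and 47.9 in the Sep5 mutant and 40.1, 43.2, 45.1 and 44.4 in the control. CSN4 overlapped and was not called (log2 fold change 0.29, SE 0.14, limma adjusted p = 0.106).

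Against the libraries labelled Sep2[2] 5 of the 9 COP9 genes were lower in the double mutant, where 12.9% of all tested genes were. CSN5 had 27.6, 30.3, 27.4 and 23.01 CPM in the double mutant, 41.99, 44.5 and 40.3 in Sep2[2]-labelled libraries, 33.98, 29.7 and 29.4 in the Sep5 mutant and 25.97, 26.9, 27.9 and 28.7 in the control. CSN5, the catalytic subunit, was higher in these libraries than in the control (log2 fold change 0.63, SE 0.14, limma adjusted p = 0.0175, and 0.0502 with the replicate number as a block), as was CSN6 (0.53, SE 0.13, adjusted p = 0.0255, and 0.0559 with the block). The call of CSN5 was lost without any 1 Sep2[2]-labelled library or control replicate 2 (0.0525 to 0.0753), and that of CSN6 without any 1 Sep2[2]-labelled library or control replicate 1 or 2 (0.0582 to 0.103). With the compared libraries fitted alone neither was called (0.0515 for CSN5 and 0.0935 for CSN6), and with median centring CSN6 was not (0.0605). Between double mutant and control CSN5 had a log2 fold change of -0.02 (SE 0.13, limma adjusted p = 0.913), and its interaction was called (-0.83, SE 0.20, limma adjusted p = 0.0311, and 0.0796 with the block). That call was lost without any 1 of double mutant replicate 3, Sep2[2]-labelled replicates 1 and 2, Sep5 mutant replicates 1 and 2 and control replicates 2 and 3 (0.0578 to 0.0875), and with median centring (0.0654).

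**Figure D4:**
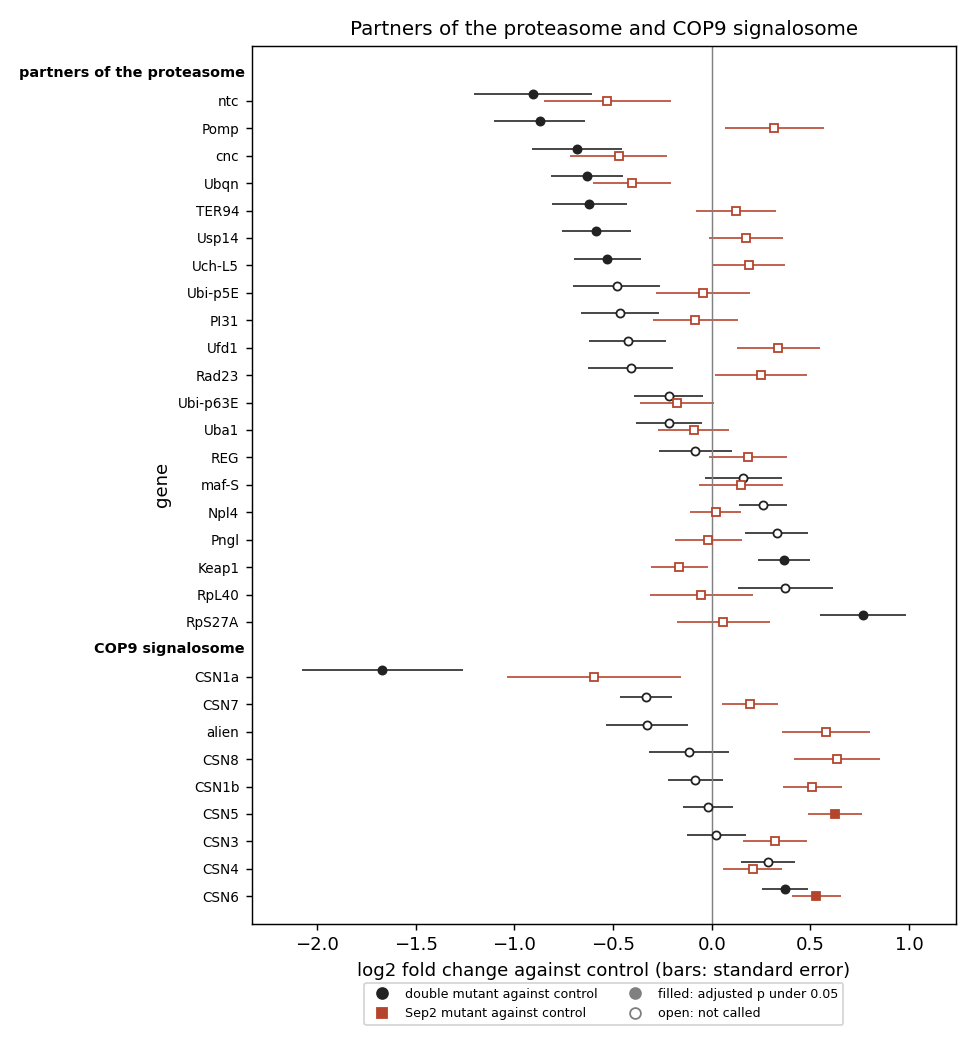
Log2 fold changes against the control (horizontal axis) with standard errors for 20 partners of the proteasome and 9 COP9 signalosome genes (vertical axis), for the double mutant (circles) and the libraries labelled Sep2 (squares); filled symbols passed an adjusted p of 0.05. In the double mutant 7 partners lie below 0 and 2 above it as filled symbols, and among the COP9 genes CSN1a stands at -1.67 and CSN6 at 0.37, while CSN5 and CSN6 are filled for Sep2.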

How the data were processed

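Polyadenylated RNA of 14 whole-larva samples was measured by sequencing; depth is given with the results. The authors deposited log2 CPM values per gene, scaled with TMM factors per the labels' protocols, with FastQC 0.11.9, cutadapt 3.5, STAR 2.7.11b, edgeR 3.40 and the builds BDGP6 and dm6 named in the submitters' processing notes. The counting step and its use of strand are not given in the sources used here; near-identical copies and overlapping genes may share reads. Taken off the log scale, with the lowest value of the table subtracted (-3.65 log2 CPM, or 0.0797 CPM), each value was a whole number of reads within 0.01 reads for 100% of 250166 values, and showed about 2 reads added before taking logs, which pulls fold changes of low genes towards 0.

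The labels name quasi-likelihood tests on counts. Since the deposited table is on a log scale, limma 3.58.1 in R 4.3.3 was used, with all 14 libraries and genotype as the single term, an intensity trend and robust variances, on 12586 of 17869 genes above 0 log2 CPM in at least 3 libraries. Adjusted p-values are Benjamini-Hochberg values over these genes within each of 7 comparisons, with 0.05 as the threshold, and fold changes are on the deposited log2 scale. The fit was also run on simulated data, with independent libraries and few changed genes. The real libraries differ from that setting, so the simulation does not show how reliable the calls are here. Background percentages count all tested genes. Libraries were compared in a group only as the labels give it, and all value columns matched a sample.

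The members, lists and tests were chosen with earlier results of these data known. Values of every library are given for the 2 subunits with the smallest and the 1 with the largest adjusted p of each class in the double mutant against the control, for the testis-type copies and for up to 4 genes of each further list; other genes named were picked after their values were seen. Of 128 listed genes 126 were matched to the table, partly through RefSeq synonyms. Positions and lengths are those of Ensembl release 115 of BDGP6. Alternative settings were no filter, a stricter filter (1 log2 CPM in 4 libraries), 1 CPM added, median centring, quantile normalization, voom on the recovered reads, a replicate block, double mutant replicates 1 and 2 alone, the libraries in the fit and the omission of each library. Groups share replicate numbers in the labels. Same-numbered libraries deviated from their group means with correlations of 0.305, 0.452 and 0.166 between the libraries labelled Sep2[2] and the control. In no other pair of groups were all correlations over 0.1. Between the libraries labelled Sep2[2] and the Sep5 mutant they were -0.239, 0.447 and 0.440. These correlations were not set against chance, so they do not decide whether the numbers pair any libraries. The main fit used no pairing. The blocked value is given for every comparison where it changes a call named in the text. The block was fitted with all 14 libraries. It therefore joins libraries of all genotypes by their number alone, without a known pairing.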

Additional observations from a re-analysis of the deposited data

Results flagged for a closer look

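Of 92 groups of 4 libraries screened, 7 held a library far from the other 3 by Dixon's test, which flags about 5% of groups by chance. Double mutant replicate 2 was the high library in 5 of them. It had 7.18 log2 CPM for Prosalpha4 (the others 6.26 to 6.37), 7.64 for Rpt4 (6.52 to 6.71), 7.04 for Rpt6 (5.77 to 5.92), 8.09 for Rpn1 (7.15 to 7.29) and 7.75 for Rpn8 (7.39 to 7.44). Control replicate 4 was high for Prosbeta2, at 7.81 log2 CPM with the others at 7.13 to 7.18, and for Prosbeta7, at 7.80 with the others at 7.66 to 7.68.

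The effect of carrying both mutations differed from the sum of the single mutants for Prosbeta3 (interaction -1.22 on the log2 scale, limma adjusted p = 0.0341), Rpn12 (-1.34, adjusted p = 0.0335) and CSN5 (-0.83, adjusted p = 0.0311). With the replicate number as a block, none of these 3 passed the threshold.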

How the results depend on the processing

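The number of constitutive subunits called against the control stayed within 1.5 times the 21 of the double mutant under each change of filter, scaling or variance model and with the replicate block (15 to 27), but was 2 with double mutant replicates 1 and 2 alone and lay between 11 and 28 when 1 library was left out. Against the libraries labelled Sep2[2] it was 4 with those replicates alone, against 28, and between 20 and 29 when 1 library was left out. Against the Sep5 mutant it was 5 after quantile normalization, against 0, and between 0 and 7 when 1 library was left out. The 2 interaction calls were 1 without a filter, 4 after quantile normalization, 1 with median centring, 0 with the replicate block and 0 with double mutant replicates 1 and 2 alone, and between 0 and 8 when 1 library was left out. The 10 testis-type copies were 2 without a filter, 6 with the replicate block and 1 with those replicates alone, and between 2 and 12 when 1 library was left out; the cause was not tested. The single mutants had 0 calls against the control, and against each other 0 constitutive ones, in every setting. Rpt4R changed sign between double mutant and control, at 0.026 after quantile normalization and between -0.16 and 0.18 when 1 library was left out. So did CSN5, at 0.0022 after quantile normalization, 0.011 with median centring, 0.081 with double mutant replicates 1 and 2 alone and between -0.077 and 0.056 when 1 library was left out, and lncRNA:roX1, at 0.016 with median centring and between -0.21 and 0.17. Prosbeta3 changed sign between the Sep5 mutant and the control, at -0.016 with the replicate block and between -0.072 and 0.26 when 1 library was left out; none of these was called. The replicate block changed no other count by over 1.5 times.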
